A study of Rattus norvegicus with 8 samples.

Results

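The question here was which liver transcripts differed between rats given atorvastatin together with hexachlorobenzene (HCB) and rats given HCB alone. The comparison rests on 4 of the 8 RNA sequencing libraries of the series, 2 per group, and it covers every gene of the count table, of which 16591 of 30562 had enough reads to be tested. The 4 animals were labelled male Wistar rats weighing 160 g at the start. HCB, a persistent chlorinated fungicide, was given to all 4 by stomach tube in water with the detergent Tween-20, 100 mg/kg on 3 occasions a week during 30 days, and all were killed on day 37. The animals of the combination group also drank atorvastatin, a statin. The labels give its dose as 5 mg/kg per day and also as 5 mg in 20 mL of water, with 20 mL per rat and day, and these do not match for a rat of that weight, so the dose taken in is uncertain. The remaining 4 libraries, 2 vehicle controls and 2 from rats given atorvastatin alone, shared the model and supply side-by-side values. They differed from the exposed libraries beyond the labelled treatment, as described below, so their levels are not a plain baseline for HCB. Each group had 5 rats, of which 2 were sequenced as separate libraries from separate animals. The rats lived under a light-dark cycle, and the hour of killing is not given in the sources used here.

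Statins block cholesterol synthesis. When sterol in the membrane of the endoplasmic reticulum falls, the transcription factor SREBP2 is released and raises genes of that pathway, among them Hmgcs1, Sqle and Idi1. HCB is known as an inducer of drug-metabolising cytochrome P450 enzymes and as a porphyrinogenic agent that disturbs heme synthesis at the step of uroporphyrinogen decarboxylase (Urod). The liver also carries a circadian clock, in which Bmal1 pairs with Clock or Npas2 to activate genes such as Per1, Nr1d1, Dbp and Ciart, while the receptors Nr1d1 and Nr1d2 repress Bmal1 and Npas2.

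The libraries held between 38.4 M and 52.0 M reads assigned to genes (M, 1e6), with both mates of a pair counted. Defining hepatocyte genes such as albumin (Alb) were abundant in all 4, where the 12 hepatocyte markers summed to between 158700 and 236100 CPM (read counts scaled to a library total of 1e6). One library stood apart. Among 12260 genes averaging at least 1 CPM, HCB 1 differed at least 2-fold from HCB 2 in 9.96% of genes, and from the combination libraries in 12.6% and 11.7%. HCB 2 differed from them in 4.36% and 2.48%, and they differed from each other in 4.16%. The difference went with transcript length, with genes ranked by summed exon length into 4 classes. Relative to HCB 2, the median log2 level in HCB 1 was 0.30 in the shortest class and -0.26 in the longest. In both combination libraries it lay between 0.002 and 0.052 in every class. HCB 1 also had the largest share of mitochondrial reads of the 4 libraries, 12.8% against 8.02% to 9.36%, and the largest share of reads mapping to several places, 19.4% against 10.7% to 12.2%. The part of these differences in the results was not tested. Values without HCB 1 are given for part of the genes and lists, and a value given once may also have changed without it.

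**Figure D1:**
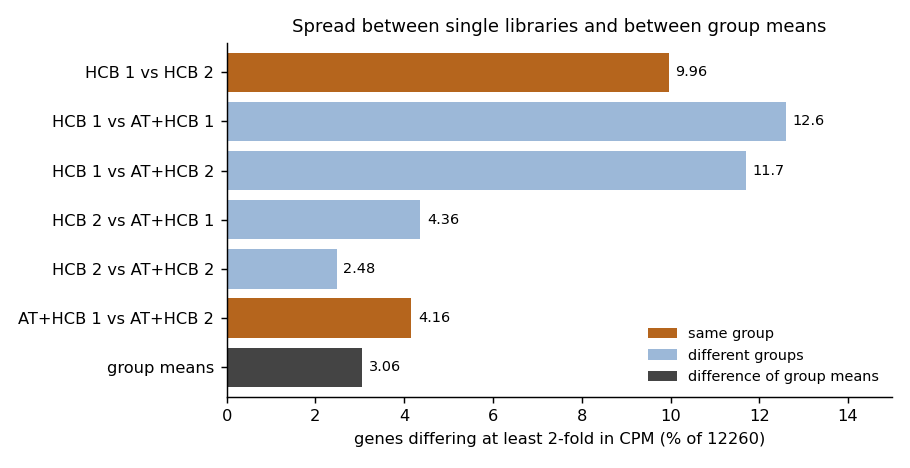
Share of 12260 genes (x axis, %) differing at least 2-fold in CPM between each pair of the 4 HCB-exposed libraries (AT+HCB is the combination) and between the group means; brown bars pair libraries of 1 group, blue bars of different groups. The pairs that include HCB 1 show 9.96% to 12.6% of genes apart, the other pairs 2.48% to 4.36%, and the group means 3.06%.

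No gene passed the main test: edgeR's quasi-likelihood test called 0 of 16591 genes (0%) at a Benjamini-Hochberg adjusted p of 0.05. At an unadjusted p under 0.05 it gave 857 genes (5.17%), 360 higher (2.17%) and 497 lower (3.00%) in the combination group. DESeq2, run on the same counts, called 47 of the 13052 genes to which it gave an adjusted p (0.360%), 26 of them higher (0.199%) and 21 lower (0.161%). In 5779 genes (34.8%) the groups did not overlap, 2976 being higher (17.9%) and 2803 lower (16.9%) in both combination libraries than in both HCB libraries. Without overlap and with a fitted difference of at least 2-fold, 359 genes were higher (2.16%) and 887 lower (5.35%). In the same edgeR model 4466 genes (26.9%) passed between HCB and control, a comparison that shares the HCB libraries. DESeq2's calls depended on single libraries: 17 genes were called without HCB 1, 8 of them among the 47, and 754 without HCB 2, 36 of them among the 47. Without combination library 1 it called 9 genes, 5 of them among the 47, and without combination library 2 it called 60, of which 23 were among the 47. In all 47 the groups did not overlap, so their kept direction without HCB 1 followed from that. Of the 47, 37 still differed at least 2-fold there. Only Atp2b2 and Zfp354a were called by DESeq2 whichever of the 4 libraries was left out, and each of the other genes went uncalled in at least 1 of these fits.

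Atp2b2 and Zfp354a had the smallest p in their directions. Atp2b2 (ENSRNOG00000030269, chr4:146896332-147140665 in mRatBN7.2), which encodes a plasma membrane calcium pump known best from neurons and hair cells, stood at 8.17 and 9.21 CPM in the HCB libraries and at 47.7 and 33.9 CPM in the combination libraries. The groups were far apart, and the unexposed libraries were higher still, with means of 91.3 CPM in controls and 89.4 CPM after atorvastatin alone. The log2 difference was 2.23 ± 0.26 (SE), and edgeR's adjusted p of 0.0501 just missed the threshold. DESeq2 gave an adjusted p of 2.10e-10, and without HCB 1 the log2 difference was 2.15. Leaving out either library of atorvastatin alone, or combination library 2, brought Atp2b2 under edgeR's threshold, with a lowest adjusted p of 0.0168, and leaving out other libraries gave values up to 1.

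Zfp354a (ENSRNOG00000003634, chr10:35396231-35408068 in mRatBN7.2), a KRAB zinc finger gene described in injured and regenerating kidney, was at 94.8 and 58.9 CPM with HCB and at 11.4 and 14.35 CPM with the combination. Its control mean was 4.29 CPM, so both combination libraries lay between the HCB and the control levels. The log2 difference was -2.58 ± 0.35, with an adjusted p of 0.115 in edgeR and 2.27e-08 in DESeq2, and it was -2.19 without HCB 1.

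The next genes were called higher by DESeq2. Slc34a2, a sodium-phosphate cotransporter, stood at 23.9 and 47.9 CPM with HCB and at 112 and 183 CPM with the combination, a log2 difference of 2.04 ± 0.39 (DESeq2 adjusted p = 4.70e-04). Cldn1, a tight junction protein, stood at 26.2 and 35.9 against 97.2 and 68.5 CPM, a log2 difference of 1.42 ± 0.31. Slc6a6, the taurine transporter, read 21.3 and 17.1 against 164 and 38.7 CPM, and its log2 difference of 2.40 ± 0.65 was 1.02 without combination library 1. None of these 3 overlapped between the groups. Itga6, a laminin-binding integrin chain, stood at 27.7 and 43.4 CPM with HCB and at 78.9 and 80.5 CPM with the combination (log2 difference 1.16 ± 0.25). Clpx, the unfoldase of the mitochondrial ClpXP protease, was at 92.3 and 116 against 320 and 220 CPM, a log2 difference of 1.37 ± 0.28 (DESeq2 adjusted p = 0.00274). Dipk2a, a kinase-like protein of the secretory pathway, was at 33.6 and 42.1 against 108 and 83.6 CPM, a log2 difference of 1.34 ± 0.26 (edgeR adjusted p = 0.539, DESeq2 0.00552). Both were separated between the groups, and Dipk2a differed by 1.19 and Clpx by 1.22 without HCB 1.

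Others were low in abundance. Nim1k, an AMPK-related kinase, read 0.697 and 0.534 CPM with HCB and 3.41 and 2.20 CPM with the combination, and its log2 difference of 2.19 ± 0.41 became 2.39 without HCB 1, where DESeq2 still called it, but not without combination library 1 (adjusted p = 0.787). Tubb2a, a beta-tubulin, stood at 7.60 and 9.16 against 39.2 and 21.1 CPM, a log2 difference of 1.85 ± 0.44. Cyp26b1, which breaks down retinoic acid, was at 1.87 and 0.694 against 4.29 and 7.27 CPM, a log2 difference of 2.18 ± 0.56. Efr3b, an anchor for a phosphatidylinositol kinase at the plasma membrane, had no read in either HCB library and 0.351 and 0.630 CPM with the combination, which is at least 5.64-fold higher when HCB is set to a floor of 6 reads over the group. DESeq2 called Efr3b with all 8 libraries and in none of the fits that left out 1 of the 4.

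The next genes were called lower by DESeq2. Nfe2, a transcription factor of the erythroid and megakaryocyte lineages, was at 8.58 and 14.6 CPM with HCB and at 4.01 and 2.61 CPM with the combination. Its log2 difference was -1.81 ± 0.36, and without HCB 1 it was -2.14 with a DESeq2 adjusted p of 0.00579, against 0.258 without combination library 2. Mcm10, a DNA replication factor, was at 15.5 and 14.5 against 5.64 and 6.16 CPM, a log2 difference of -1.34 ± 0.28. Neither gene overlapped between the groups, and the replicates of Mcm10 lay close together relative to the gap between them. Zfp189, a zinc finger gene, was at 34.6 and 24.8 against 11.7 and 12.7 CPM, a log2 difference of -1.28 ± 0.25. St6galnac4, a sialyltransferase, read 56.2 and 42.2 against 13.2 and 23.3 CPM, a log2 difference of -1.43 ± 0.30. Apcdd1, an inhibitor of WNT signalling, stood at 7.38 and 4.38 against 2.46 and 1.53 CPM, a log2 difference of -1.56 ± 0.37. Kcnh1, a voltage-gated potassium channel, was at 6.74 and 4.14 against 0.150 and 1.21 CPM, a log2 difference of -2.98 ± 0.81. In each of these the 2 combination libraries lay below both HCB libraries.

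**Figure D2:**
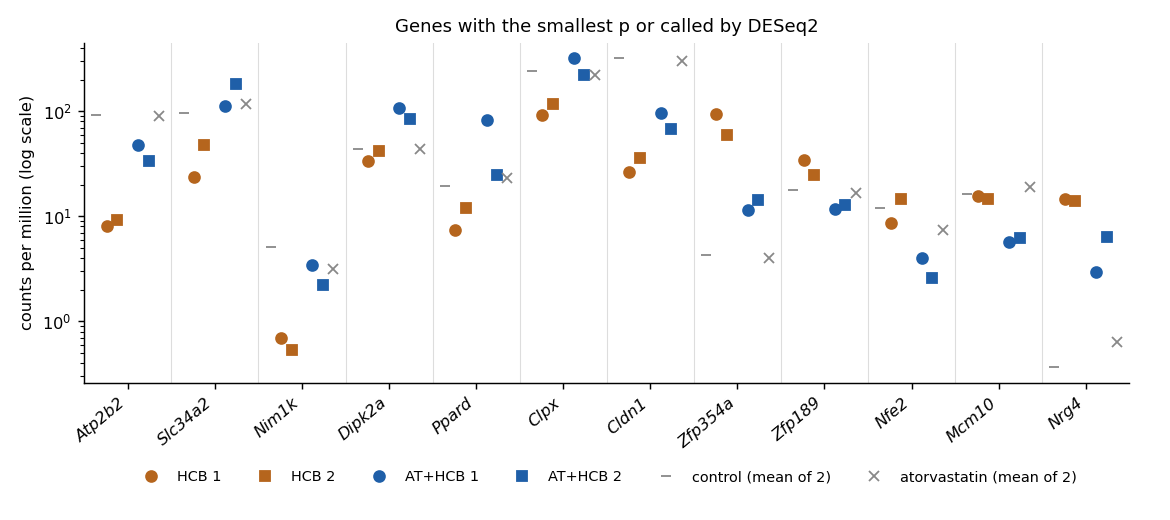
CPM on a log axis for 12 genes with the smallest p or called by DESeq2, with 1 point for each HCB (brown) and combination (blue) library and grey marks for the means of control and of atorvastatin alone. For Atp2b2 the combination libraries (47.7 and 33.9 CPM) lie between the HCB libraries and the unexposed means, and for Zfp354a (11.4 and 14.35 CPM) they lie above the unexposed means and below the HCB libraries.

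Clock genes differed widely, and in both directions. Of 17 core clock genes tested, 4 were higher and 5 lower at an unadjusted edgeR p under 0.05, and DESeq2 called 2 higher (Bmal1 and Npas2) and 1 lower (Nr1d2). Of 18 clock output genes, 1 was higher and 5 were lower at that unadjusted p, and DESeq2 called 1, Dbp. Over all genes, 2.17% were higher and 3.00% lower at that p, and DESeq2 called 0.199% higher and 0.161% lower. The list medians were -0.32 for the core clock and -0.63 for the outputs, against 0.00 over all genes, and -0.18 and -0.69 without HCB 1. The core clock median turned positive without HCB 2 (0.265) and without combination library 1 (0.155), and the output median was then -0.23 (-0.228) and -0.22 (-0.217). Because the hour of killing is not given in the sources used here, a difference in sampling time and a difference in the clock cannot be told apart.

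The windows upstream of Bmal1, Nr1d1 and Ciart are shown because they carry the short motifs that the clock factors are known to use. Sequences are from RefSeq on GRCr8, cover the 250 bases before the transcription start, and read 5′ to 3′ along the gene; the Nr1d1 and Ciart windows lie on the minus strand. Capitals mark the E-box CACGTG, bound by Bmal1 with Clock, in Nr1d1 (chr10:84229455-84229704) and Ciart (chr2:186112247-186112496), and the element TAGGTCA, bound by Nr1d1, Nr1d2 and the ROR receptors, in Bmal1 (chr1:176766078-176766327, plus strand).
Bmal1: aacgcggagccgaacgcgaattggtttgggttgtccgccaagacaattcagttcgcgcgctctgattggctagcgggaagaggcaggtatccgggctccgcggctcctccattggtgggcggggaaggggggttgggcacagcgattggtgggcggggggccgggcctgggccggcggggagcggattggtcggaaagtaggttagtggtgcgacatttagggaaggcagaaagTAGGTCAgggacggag
Nr1d1: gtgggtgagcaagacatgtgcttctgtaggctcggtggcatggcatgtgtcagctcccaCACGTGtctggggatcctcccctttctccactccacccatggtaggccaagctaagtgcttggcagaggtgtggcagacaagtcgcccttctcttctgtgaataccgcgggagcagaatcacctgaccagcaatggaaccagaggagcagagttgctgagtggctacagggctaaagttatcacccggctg
Ciart: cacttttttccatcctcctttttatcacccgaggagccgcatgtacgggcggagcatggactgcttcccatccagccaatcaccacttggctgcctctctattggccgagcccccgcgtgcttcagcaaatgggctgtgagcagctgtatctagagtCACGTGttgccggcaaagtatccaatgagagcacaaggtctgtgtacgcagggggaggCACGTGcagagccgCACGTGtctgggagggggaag
Both strands were searched, and the motifs do not overlap each other in these windows. Bmal1 held 1 TAGGTCA from 16 to 10 bases before the start. Nr1d1 held 1 CACGTG from 191 to 186 bases before it, and Ciart held 3, the nearest from 21 to 16 bases before it. Of the 35 core clock and output genes, 28 had a window, in which CACGTG occurred for 6 genes, TAGGTCA for 2 and the D-box TTATGNAA for 1, Per2. Among all 33469 windows of that length, 5.59% held CACGTG, 2.26% TAGGTCA and 3.28% TTATGNAA.

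Bmal1, Npas2 and Clock were higher in both combination libraries. Bmal1 stood at 1.99 and 12.0 CPM in the HCB libraries and at 43.4 and 36.1 CPM in the combination libraries. The groups did not overlap, with HCB 1 far below HCB 2, and the controls averaged 17.8 CPM. Its log2 difference of 2.50 ± 0.64 had a DESeq2 adjusted p of 0.00483 and became 1.73 without HCB 1, where DESeq2 still called it. DESeq2 did not call Bmal1 without combination library 1 (adjusted p = 0.530) or on the 4 exposed libraries alone (adjusted p = 0.816). Npas2, the alternative partner of Bmal1, stood at 1.33 and 0.294 CPM with HCB and at 35.4 and 3.80 CPM with the combination. The combination libraries lay far apart but both above HCB, and the log2 difference was 4.62 ± 1.05, or 6.05 without HCB 1 and 2.25 without combination library 1. DESeq2 gave Npas2 an adjusted p of 0.0446, which was 0.994 without combination library 1 and 0.316 on the 4 exposed libraries alone. Clock, at 48.0 and 80.2 against 131 and 103 CPM, differed less, by 0.87 ± 0.27, and by 0.55 without HCB 1. Cry1, a repressor, pointed the same way, at 9.88 and 31.3 against 37.8 and 42.6 CPM, with a log2 difference of 0.96 ± 0.41 that was 0.37 without HCB 1.

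Dbp, Nr1d2 and Ciart were lower in both combination libraries. Dbp, a transcription factor that carries the rhythm to detoxification genes, stood at 81.4 and 25.6 CPM with HCB and at 2.58 and 8.19 CPM with the combination. The groups did not overlap, and the control mean was 13.6 CPM. Its log2 difference of -3.31 ± 0.70 had an adjusted p of 0.705 in edgeR and 1.56e-05 in DESeq2, and DESeq2 no longer called it without HCB 1, where the log2 difference was -2.24. Nr1d2 was at 146 and 55.6 CPM with HCB and below both with the combination, with a log2 difference of -2.26 ± 0.55, or -1.39 without HCB 1. Nr1d1 rested on 1 library: HCB 1 stood at 59.6 CPM while HCB 2, at 7.69, lay close to the combination libraries at 7.32 and 4.30, and the log2 difference of -2.53 was -0.40 without HCB 1. Ciart, a repressor of the Bmal1 complex, read 1.27 and 0.694 against 0.0501 and 0.135 CPM, a log2 difference of -3.34 ± 0.94 and -2.85 without HCB 1. This rests on 66 reads over the HCB libraries and 8 over the combination libraries, near the floor of 6 reads. DESeq2 gave Ciart no adjusted p.

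The Period genes differed among themselves. Per1 was at 24.7 and 35.5 CPM with HCB and at 5.19 and 11.6 CPM with the combination (-1.84 ± 0.54, and -2.07 without HCB 1). Per3 was at 38.3 and 42.5 against 2.08 and 16.3 CPM (-2.13 ± 0.73, and -2.19 without HCB 1), and edgeR called it only when combination library 2 was left out. Per2 overlapped between the groups, and its log2 difference of -0.32 ± 0.46 turned positive, to 0.38, without HCB 2, and to 0.09 without combination library 1. Tef, a relative of Dbp, read 66.6 and 66.7 against 21.6 and 54.4 CPM (-0.81 ± 0.37). Upp2, a liver uridine phosphorylase listed among the outputs, read 52.8 and 6.52 against 1.73 and 3.37 CPM, and its log2 difference of -3.53 ± 0.84 was -1.34 without HCB 1. Of the clock genes named here, each kept its direction without HCB 1, which for all but Per2 followed from the lack of overlap. Upp2, Nr1d1 and Cry1 lost the largest proportion of their log2 difference.

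**Figure D3:**
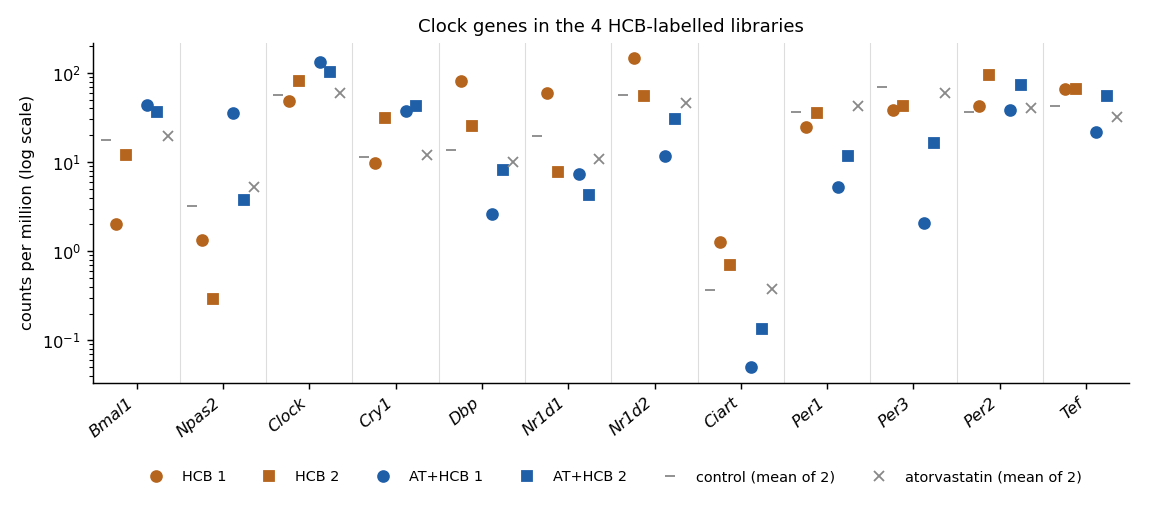
CPM on a log axis of 12 clock and clock output genes, with 1 point for each HCB (brown) and combination (blue) library and grey marks for the means of control and of atorvastatin alone. Bmal1, Npas2 and Clock are higher in both combination libraries, Dbp, Nr1d2, Per1, Per3 and Ciart are lower, and Per2 overlaps.

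The direct pathway of the drug showed no call by either tool. Of 22 genes of cholesterol synthesis, 0 were higher and 2 lower at an unadjusted edgeR p under 0.05, the median log2 difference was -0.26 (-0.255), and it was -0.13 without HCB 1. The shares over all genes at that p were 2.17% higher and 3.00% lower. Idi1, an isomerase of the isoprenoid steps, was at 252 and 136 against 82.9 and 110.55 CPM (-1.001 ± 0.40, and -0.48 without HCB 1). Sqle, squalene epoxidase, was at 108 and 119 against 59.6 and 94.9 CPM (-0.56 ± 0.36). The groups did not overlap for Idi1 or Sqle. Hmgcs1, an early enzyme of the pathway, was at 1171 and 1105 against 761 and 1132 CPM and overlapped between the groups.

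The genes of sterol sensing, uptake and efflux overlapped in most cases. At an unadjusted edgeR p under 0.05, 1 of 23 was higher and 1 lower, against 2.17% and 3.00% over all genes. Srebf2, which encodes SREBP2, was at 98.4 and 164 against 164 and 171 CPM, and Insig1, which retains SREBP2, was at 518 and 455 against 273 and 447 CPM. Insig2 was the higher gene, at 94.5 and 95.4 against 242 and 169 CPM. Its replicates agreed closely with HCB, and the log2 difference of 1.12 ± 0.31 was the same without HCB 1 (DESeq2 adjusted p = 0.150). The lower one was Abcg5, which with Abcg8 exports sterols into bile: Abcg5 stood at 40.7 and 46.4 against 17.8 and 21.5 CPM (-1.15 ± 0.41) and Abcg8 at 24.1 and 39.7 against 17.9 and 17.9 CPM (-0.83 ± 0.40). Cyp7a1, which runs the rate-limiting step from cholesterol to bile acids, was at 1392 and 510 against 340 and 449 CPM, a log2 difference of -1.27 ± 0.72 that was -0.36 without HCB 1.

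Of 31 targets of the lipid receptor PPAR-alpha and genes of fatty acid oxidation, 4 were higher and 1 lower at an unadjusted edgeR p under 0.05, and DESeq2 called 2 higher (Cyp4a2 and Cyp4a8) and 1 lower (Cpt1a). Over all genes, 2.17% were higher and 3.00% lower at that p, and DESeq2 called 0.199% higher and 0.161% lower. The list median was 0.15, with 0.12 without HCB 1 and 0.013 without combination library 2. Cyp4a2, a fatty acid omega-hydroxylase, stood at 12.8 and 8.65 CPM with HCB and at 34.1 and 33.6 CPM with the combination. The controls averaged 0.071 CPM, but they also differed from the exposed libraries in Y-linked genes and Afp. The gap to the controls can therefore not be put down to HCB. Cyp4a8, a close relative, was at 14.2 and 12.0 against 67.9 and 33.5 CPM. The log2 differences were 1.66 ± 0.43 for Cyp4a2 and 1.95 ± 0.44 for Cyp4a8, and they were 1.97 and 2.09 without HCB 1. Reads that fit several members of the Cyp4a family were not counted, so levels of single members are uncertain. Cpt1a, the gate of fatty acids into the mitochondrion, went the other way, at 415 and 274 against 157 and 148 CPM, a log2 difference of -1.17 ± 0.28 (DESeq2 adjusted p = 0.0099), and -0.83 without HCB 1.

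Angptl4, Pdk4 and Plin2 were separated between the groups without passing either test. Angptl4, an inhibitor of lipoprotein lipase, was at 22.7 and 32.2 against 98.3 and 42.7 CPM (1.36 ± 0.38, and 1.13 without HCB 1). Pdk4, which shuts off pyruvate dehydrogenase, was at 33.5 and 71.1 against 99.0 and 148 CPM (1.24 ± 0.43, and 0.81 without HCB 1). Plin2, a lipid droplet coat protein, was at 90.1 and 160 against 248 and 209 CPM (0.87 ± 0.38, and 0.52 without HCB 1). In all 3 the combination libraries lay above both HCB libraries. Ppard, the PPAR-delta receptor, was called higher by DESeq2, at 7.41 and 12.1 against 81.8 and 24.7 CPM (2.44 ± 0.47). Ppard leaned on combination library 1: without it the log2 difference was 1.34 and DESeq2 did not call it (adjusted p = 0.720), nor did it without HCB 1 (adjusted p = 0.132). The synthesis of fatty acids and triglycerides gave 1 higher and 2 lower of 23 genes at that unadjusted p, against 2.17% and 3.00% over all genes. Gpam, which starts triglyceride synthesis, was at 218 and 400 against 533 and 604 CPM (0.88 ± 0.32, and 0.51 without HCB 1). Lpin2, a phosphatidate phosphatase, was at 166 and 159 against 67.35 and 112 CPM (-0.86 ± 0.31, and -0.82 without HCB 1). Scd, the stearoyl-CoA desaturase, ranged from 559 CPM in HCB 1 to 5340 CPM in combination library 1, with the other libraries at 1901 and 1955 CPM. Fasn, fatty acid synthase, overlapped at 585 and 1114 against 1308.5 and 894 CPM, and its log2 difference of 0.37 was -0.01 without HCB 1. Srebf1, its main activator, was at 470 and 532 against 636 and 534 CPM.

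Drug-metabolising genes showed no call by either tool in the lists of AHR, CAR and PXR, and NRF2 targets. At an unadjusted edgeR p under 0.05 the 7 AHR targets gave 0 in either direction, the 24 CAR and PXR targets 1 higher and 1 lower, and the 33 NRF2 and glutathione genes 1 higher and 0 lower. The shares over all genes were 2.17% higher and 3.00% lower. Cyp1a2, a dioxin-responsive P450, was at 879 and 1045 CPM with HCB and at 1222 and 1074.5 CPM with the combination (0.26 ± 0.44). Cyp1a1 stayed low, between 0.902 and 2.74 CPM in all 4 libraries, and Cyp3a23-3a1, a PXR target, overlapped at 564 and 307 against 472 and 432 CPM. Cyp2b1, the classical phenobarbital-inducible P450, was at 4.94 and 16.2 against 6.87 and 44.6 CPM, and its sign turned from 1.28 to -0.62 without combination library 2. Nqo1, a quinone reductase, overlapped at 38.7 and 67.9 against 36.8 and 47.0 CPM. Por, the electron donor of all microsomal P450 enzymes, was lower in the combination libraries at 266 and 589 against 132 and 254 CPM (-1.15 ± 0.45). Its log2 difference was -1.60 without HCB 1 and -0.46 without HCB 2. Osgin1, an oxidative stress gene, was the higher NRF2 gene, at 49.8 and 203 against 217 and 398 CPM (1.29 ± 0.54, and 0.61 without HCB 1). Gstt3, a theta-class glutathione transferase in none of these lists, was called higher by DESeq2 at 79.4 and 106 against 178 and 254 CPM (1.22 ± 0.26).

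Heme synthesis gave 0 higher and 1 lower of 17 genes at an unadjusted edgeR p under 0.05, and DESeq2 called the same single gene, Alas2. Over all genes, 2.17% were higher and 3.00% lower at that p, and 16.9% were lower in both combination libraries. DESeq2 called 0.199% higher and 0.161% lower over all genes. Alas1, the rate-limiting enzyme of the pathway in hepatocytes, was at 415 and 365 CPM with HCB and at 271 and 214 CPM with the combination, above the control mean of 135 CPM in all 4. The groups did not overlap, and the log2 difference was -0.68 ± 0.32 and missed an unadjusted p of 0.05 in edgeR, and it was -0.58 without HCB 1. Urod, the enzyme lost in HCB porphyria, was at 41.4 and 35.3 against 31.6 and 31.8 CPM, with a log2 difference of -0.27 ± 0.22 and a 95% interval of -0.77 to 0.22. Alas2 is the form of red cell precursors, and it went with other red cell genes: of 12 erythroid markers, 0 were higher and 7 lower at that unadjusted p, DESeq2 called 2 lower (Alas2 and Hba-a1), and 10 were lower in both combination libraries. Alas2 read 28.1 and 9.77 against 5.26 and 5.53 CPM (-1.81 ± 0.52), and the alpha-globin gene Hba-a1 read 1148 and 503 against 297 and 258 CPM (-1.57 ± 0.47). HCB 1 was the highest library for both, and without it the differences were -0.85 and -0.85. The 12 markers summed to 1514 and 814 CPM with HCB and 580 and 518 CPM with the combination. The list median of -1.54 was -0.73 without HCB 1. That 10 of the 12 lay below HCB 2 in both combination libraries (5136 of 16591 over all genes) follows from the lack of overlap. In bulk tissue, fewer cells of a type and less RNA per cell cannot be told apart. How far blood contributed to the differences of Alas2 and Nfe2 was not tested.

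Amino acid and glucocorticoid genes were mostly lower or overlapping. Sds, serine dehydratase, a fasting-responsive enzyme of gluconeogenesis, differed widely, at 201 and 45.4 CPM with HCB and 9.80 and 5.31 CPM with the combination. The groups were separated, and the log2 difference of -4.03 ± 0.91 was -2.58 without HCB 1 (DESeq2 adjusted p = 0.0503). Got1, the cytosolic aspartate aminotransferase, was called lower by DESeq2, at 260 and 219 against 110.7 and 97.6 CPM (-1.20 ± 0.31, and -1.07 without HCB 1). Cth, which makes cysteine, was at 642 and 382 against 1316 and 833 CPM (1.07 ± 0.40). In the list of urea cycle and amino acid breakdown as a whole, 2 of 39 were higher and 4 lower at an unadjusted edgeR p under 0.05, with a median of -0.01. The shares over all genes at that p were 2.17% higher and 3.00% lower. All 16 glucocorticoid targets had a lower fitted level, 5 of them at that unadjusted p and 7 without overlap (over all genes 8241 of 16591 had a lower fitted level, 3.00% at that p and 16.9% without overlap), with a median of -0.49 (-0.485), or -0.36 (-0.355) without HCB 1. Tsc22d3, the glucocorticoid-induced leucine zipper, was at 132 and 83.2 against 59.4 and 54.4 CPM (-0.92 ± 0.25, and -0.54 without HCB 1). Mt1, a zinc-binding metallothionein, was at 298 and 137 against 21.1 and 77.3 CPM (-2.14 ± 0.63, and -1.47 without HCB 1).

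The endothelial, matrix and macrophage lists had smaller medians than the erythroid one. Of 21 endothelial markers, 14 were higher and 0 lower in both combination libraries without overlap, 1 of them at an unadjusted edgeR p under 0.05. Over all genes, 17.9% were higher and 16.9% lower without overlap, and 2.17% were higher and 3.00% lower at that p. The list median was 0.27 (0.265), or 0.24 without HCB 1, and the summed level was 1185 and 1141 CPM with HCB and 1326 and 1354 CPM with the combination. Clec4g, a lectin of sinusoidal endothelium, was at 19.5 and 32.3 against 38.25 and 41.0 CPM (0.61 ± 0.27, and 0.30 without HCB 1). Of 26 collagen and matrix genes, 16 were higher and 1 lower without overlap, and 3 were higher and 1 lower at that unadjusted p, with a median of 0.41, or 0.33 without HCB 1. Col4a1, a basement membrane collagen, was at 34.4 and 52.4 against 84.1 and 79.4 CPM (0.91 ± 0.29), and Col5a1, a fibrillar collagen, at 16.6 and 25.5 against 36.1 and 35.3 CPM (0.76 ± 0.28). Pdgfrb, a receptor of stellate cells, was at 18.2 and 24.9 against 61.6 and 35.0 CPM (1.16 ± 0.29). The lower matrix gene was Lox, a collagen cross-linking enzyme, where HCB 2 alone was high at 130 CPM and the other 3 libraries lay between 0.765 and 1.11 CPM, so that its log2 difference of -6.36 ± 2.18 was -0.47 without HCB 2. Kupffer cell and macrophage markers overlapped, with sums of 774 and 724 against 635 and 918 CPM, and neutrophil markers were near 0 throughout, with sums between 1.10 and 5.29 CPM. The part of these cell types in the differences of other genes was not tested.

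The lists of preneoplastic markers and of the cell cycle gave no call by either tool. Of 32 preneoplastic and oncofetal markers, 1 was higher and 0 lower at an unadjusted edgeR p under 0.05, against 2.17% and 3.00% over all genes. Gstp1, the placental glutathione transferase that marks preneoplastic foci in rat liver, was at 17.2 and 13.8 CPM with HCB and at 13.99 and 15.8 CPM with the combination. Its log2 difference of -0.06 ± 0.32 had a 95% interval of -0.76 to 0.65. Afp, alpha-fetoprotein, and H19, an imprinted noncoding RNA, were highest in HCB 1, and the other 3 libraries agreed closely, with Afp at 70.1 to 85.1 CPM and H19 at 49.3 to 57.5 CPM. Of 36 cell cycle genes, 2 were higher and 3 lower at that unadjusted p. Mki67, a proliferation marker, overlapped at 6.62 and 17.2 against 10.9 and 26.1 CPM, whereas Cdt1, a licensing factor of replication, was at 3.45 and 4.65 against 0.652 and 2.25 CPM (-1.47 ± 0.54). Cdkn1a, the p21 inhibitor of the cell cycle, was at 2.53 and 10.8 against 20.9 and 15.5 CPM (1.44 ± 0.53, and 0.76 without HCB 1).

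Of 27 TGF-beta and mesenchymal genes, 0 passed an unadjusted edgeR p of 0.05 and 11 were higher without overlap, with a median of 0.23, or 0.24 without HCB 1. Over all genes, 17.9% were higher without overlap, and 2.17% were higher and 3.00% lower at that p. Tgfb1 itself, the ligand, was at 7.76 and 9.83 against 10.6 and 13.2 CPM (0.43 ± 0.28). Among 21 genes of the growth hormone axis, 3 were higher and 1 lower at that unadjusted p. Igf1, the main liver-made growth factor, was at 2018 and 2760.5 against 2914 and 2945 CPM (0.29 ± 0.37), Stat5b, which carries the growth hormone signal, at 49.3 and 72.5 against 118 and 86.6 CPM (0.75 ± 0.27), and Igfbp2, an IGF-binding protein, at 10.2 and 7.00 against 4.76 and 4.09 CPM (-0.96 ± 0.35). Nrg4, a growth factor of the EGF family, was called lower by DESeq2, at 14.6 and 14.02 against 2.96 and 6.41 CPM (-1.61 ± 0.38, and -1.57 without HCB 1). Of 20 immediate early genes, 3 were higher and 0 lower at that unadjusted p. Jund was at 26.5 and 40.5 against 66.5 and 62.3 CPM (0.94 ± 0.27), while Fos was low throughout and highest in combination library 2 at 7.85 CPM (2.49 ± 0.81, and 0.94 without that library). Of 27 interferon response genes, 1 was higher and 4 lower at that unadjusted p, among them Rsad2, an antiviral enzyme, at 13.1 and 4.19 against 2.28 and 3.28 CPM (-1.63 ± 0.47, and -0.58 without HCB 1).

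The medians of many lists turned sign or came near 0 when HCB 1 was left out, and 4 of these are described here. Others were T and NK cell markers (-0.161 to 0.128) and B and plasma cell markers (-0.115 to 0.208). Female-predominant liver genes (-0.414 to -0.007) and Y-linked genes (-0.37 to -0.06) came near 0. All 29 cytosolic ribosomal protein genes had a lower fitted level with the combination, with a median log2 difference of -0.42 (-0.415), and without HCB 1 the median was 0.09 (0.085). For Rps14, of the small ribosomal subunit, HCB 1 was at 195 CPM and the other 3 libraries between 68.8 and 78.5 CPM, so that the log2 difference turned from -0.81 to 0.14 without HCB 1. The median of 22 proteasome genes went likewise from -0.37 to 0.03, that of 30 nuclear-encoded respiratory chain genes from -0.27 to 0.11 (0.105), and that of 13 mitochondrially encoded genes from -0.37 to -0.02. The endothelial, collagen, cholangiocyte, erythroid and clock output medians kept their sign whichever of the 4 libraries was left out. This was not particular to them. Among others, the medians of glucocorticoid targets, cholesterol synthesis, mitochondrially encoded and Y-linked genes also kept theirs.

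**Figure D4:**
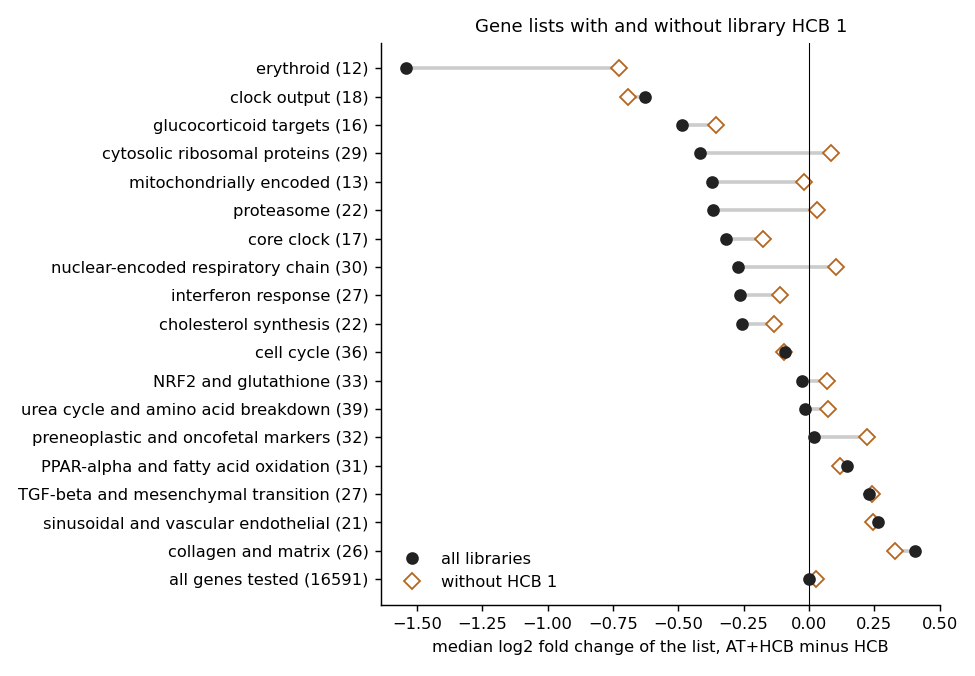
Median log2 difference, atorvastatin plus HCB minus HCB (x axis), of 18 gene lists with all libraries (filled circles) and without HCB 1 (open diamonds), beside 0.00 and 0.03 over all genes tested; the number of genes tested is in brackets. The ribosomal (-0.42 to 0.09), proteasome and respiratory chain medians cross 0 without HCB 1, while the erythroid median goes from -1.54 to -0.73 and the collagen median from 0.41 to 0.33.

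Atorvastatin without HCB was compared through the other 4 libraries, which share none with the comparison above. EdgeR called 0 of 16591 genes (0%) between atorvastatin and control, with 181 (1.09%) at an unadjusted p under 0.05, and DESeq2 called 3 (0.0181%): Cdh11, Ugt2b and 1 gene without a symbol. Cdh11, a mesenchymal cadherin, stood at 4.47 and 6.13 CPM in controls and at 18.1 and 13.2 CPM with atorvastatin, while its log2 difference in the HCB-exposed libraries was -0.13. Ugt2b, a glucuronosyltransferase, was at 3.88 and 4.59 against 11.4 and 9.93 CPM without HCB and between 2682 and 3551 CPM in all 4 exposed libraries. Of the 47 genes that DESeq2 called between the combination and HCB, 33 had the same sign between atorvastatin and control, but 33 differed there by less than 0.5 on the log2 scale. Their median size was 0.27 there and 1.72 in the comparison that chose them, where size was part of the choice. Across 12261 genes the 2 sets of log2 differences had a Pearson r of 0.14 (0.137), across genes, which are not independent replicates.

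The test of the difference between the effects of atorvastatin with and without HCB is the interaction. EdgeR called 0 genes (0%) for it, with 391 (2.36%) at an unadjusted p under 0.05, and DESeq2 called 5 (0.0301%): Atp2b2, Zfp354a, Nim1k, Ttn and a gene without a symbol. For Atp2b2 the difference between atorvastatin and control was -0.03, and the interaction was 2.26 ± 0.35 (DESeq2 adjusted p = 4.27e-04, edgeR 0.784). Zfp354a differed by -0.11 without HCB, and its interaction was -2.47 ± 0.48 (DESeq2 adjusted p = 0.0176). Ttn, the giant sarcomere protein titin, owed its interaction of -3.71 ± 0.90 in part to atorvastatin library 2, which stood at 39.4 CPM while the other 3 unexposed libraries lay between 7.04 and 7.87 CPM. The fitted differences of the sterol exporter Abcg5 pointed in opposite directions, 1.30 with atorvastatin alone and -1.15 with HCB. Those of Abcg8 did likewise (1.02 and -0.83). The rise with atorvastatin alone leaned on atorvastatin library 2. Abcg5 stood at 8.02 and 8.71 CPM in controls against 9.96 and 31.3 CPM with atorvastatin. Abcg8 stood at 5.08 and 6.44 against 6.42 and 16.9 CPM, and these overlapped. Their interactions were -2.45 ± 0.59 for Abcg5 and -1.85 ± 0.58 for Abcg8, and neither passed the adjusted test of edgeR or DESeq2 (DESeq2 adjusted p = 0.12 for Abcg5).

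**Figure D5:**
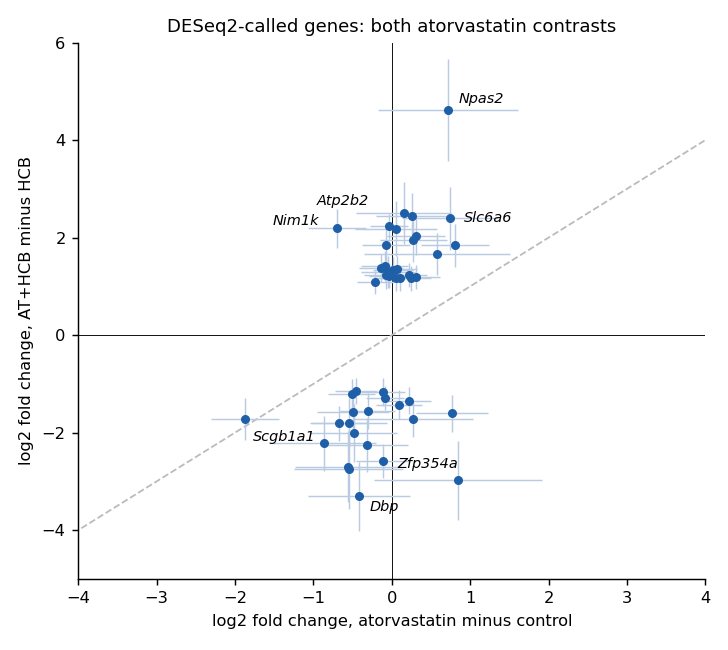
Log2 difference of atorvastatin minus control (x axis) against atorvastatin plus HCB minus HCB (y axis) for 46 of the 47 genes that DESeq2 called in the latter; lines through the points are ± 1 SE, the dashed line marks equal differences, and Efr3b, with no HCB read, is left out. Most points lie far from 0 on the y axis, where they were chosen, and within 0.5 of 0 on the x axis.

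Exposed and unexposed libraries differed beyond the labelled treatment. Y-linked genes were read in all 4 exposed libraries but were near 0 in the unexposed ones, although every rat was labelled male: Kdm5d stood between 24.9 and 27.4 CPM in the exposed libraries and averaged 0.209 CPM in controls and 0.42 CPM with atorvastatin alone. Uty was at 40.2 and 20.6 CPM with HCB and at 19.6 and 18.3 CPM with the combination, against a control mean of 0.374 CPM. Afp averaged 20803 CPM in controls and 17794 CPM with atorvastatin alone, against 70.1 to 145 CPM in the exposed libraries. HCB exposure and whatever else separates these sets of animals cannot be told apart, which touches the interaction and every control level given above. The comparison between the combination and HCB shares its filter and its estimate of the spread with the unexposed libraries. DESeq2 on the 4 exposed libraries alone called 53 genes, 39 of them among the 47.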

How the data were processed

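Liver RNA of 8 rats was sequenced as paired reads. The authors used fastp 0.23.4, STAR 2.7.10b with mRatBN7.2 and, for their own tests, DESeq2 1.42.1 in R 4.3.2, per the submitters' processing notes. Per the file headers, the deposited values are raw read counts per gene from featureCounts 2.0.6, over exons, without strand and without reads that map to several places. Overlapping and antisense genes therefore cannot be told apart. The summary sums to 507524398 reads against 249181156 stated for the series, so both mates of a pair were counted, and 3 pairs (6 reads) were taken as the floor over a group.

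All 8 libraries entered 1 edgeR 4.0.16 fit in R 4.3.3 (filterByExpr, TMM, robust quasi-likelihood, 1 coefficient per group, 4 residual degrees of freedom), with Benjamini-Hochberg adjustment over all genes tested and a threshold of 0.05. The main contrast was atorvastatin plus HCB minus HCB, with log2 differences ± SE. DESeq2 1.42.0 was an alternative. CPM were computed here from the deposited counts. The test was checked on simulated data. An exact permutation test of 2 against 2 cannot go below p = 0.333 and was not used. Each group has n = 2. The p-values set the difference between groups against a spread between single animals. That spread was estimated over all 8 libraries, unexposed ones included, and in part shared across genes.

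Named genes follow a rule: a set of statin, P450, heme, growth and preneoplastic genes in any case; the 5 with the smallest p in each direction; per gene list up to 2 with the smallest p. Genes named beyond it, such as further genes called by DESeq2 and further members of the clock, erythroid, amino acid and matrix lists, were chosen after their values were seen. The comparison, the 67 gene lists (1156 genes tested) and the naming rule were chosen with earlier results of these data known. Promoter windows come from RefSeq on GRCr8 and were matched by symbol. Figures used matplotlib 3.10.9. Some genes of the naming rule are not reported here.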

Additional observations from a re-analysis of the deposited data

How the results depend on the processing

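Against 0 genes called by edgeR in the main comparison, DESeq2 called 47 of 13052 (0.360%). On the 4 exposed libraries alone DESeq2 called 53. With the deposited readme's filter and a log2 difference over 2, it called 18. EdgeR with no filter on low counts called 179 of 22537 genes. The gene lists held 1156 genes tested in the main fit, beside which the counts of list members below are to be read. Leaving out 1 of the 8 libraries gave 0 to 6 with edgeR, and leaving out 1 of the 4 exposed ones gave 17, 754, 9 and 60 with DESeq2. The calls without HCB 2 were Bmal1, LOC120101376, Scarna10, Upp2, Mup4-ps5 and C8h15orf39, and those without combination library 2 were Atp2b2, St8sia1, Per3, Lyc2, Npas2 and Ppard. Among members of the gene lists the same settings gave 13, 17, 6 and 55, then 0 to 4 and, in DESeq2 without HCB 1, HCB 2, combination library 1 or combination library 2, 7, 93, 4 and 25. For the interaction, DESeq2 gave 5, no filter 70 and leave-one-out 0 to 5. For atorvastatin against control these were 3, 76 and 0 to 33. HCB against control gave 4466, with 2164 to 4622 in leave-one-out fits and 2108 when the control and atorvastatin libraries richest in reads outside exons were left out. The alternatives of DESeq2 alone, with the readme's filter and with libraries left out, and the fit without those libraries, were chosen after seeing the data.

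Of the gene values, 30 reversed in sign, all with 1 library left out. Over the edgeR fits without 1 library the log2 difference ranged from -0.86 to 0.38 for Per2, -0.58 to 2e-04 for Hmgcs1, -0.0098 to 0.92 for Fasn, -1.09 to 0.52 for Cyp1a1, -0.62 to 2.39 for Cyp2b1, -0.31 to 0.56 for Cyp3a23-3a1, -0.69 to 0.12 for Nqo1, -0.21 to 0.12 for Gstp1, -0.90 to 0.15 for Afp, -0.13 to 1.49 for Mki67 and -1.37 to 0.14 for Rps14. In DESeq2 the reversed values without HCB 1 were Fasn -0.013, Gstp1 0.12, Afp 0.15 and Rps14 0.13. Without HCB 2 they were Per2 0.36, Cyp1a1 0.44, Cyp3a23-3a1 -0.33, Nqo1 0.10 and Ugt2b -4e-04. Without combination library 1 they were Per2 0.064, Cyp1a1 0.50, Cyp3a23-3a1 -0.033 and Gstp1 0.0081, and without combination library 2 they were Cyp2b1 -0.62 and Mki67 -0.13. The cause was not tested. Replicate numbers were not treated as pairs. Across genes, deviations of replicate 1 from its group mean correlated at 0.05 between HCB and the combination (0.054). The correlation was 0.269 between control and atorvastatin and between -0.051 and -0.006 for the remaining pairs of groups. Whether animals were paired cannot be told from these values. The fit with the replicate number as a block called 0 genes. The biological coefficient of variation across the 8 libraries was 0.295.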

Other observations

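Over all genes, 2.17% were higher and 3.00% lower at an unadjusted edgeR p under 0.05, and 17.9% were higher and 16.9% lower without overlap. Of 21 splicing and RNA-binding genes, 0 were higher and 5 lower at an unadjusted edgeR p under 0.05, with a median of -0.25 (-0.254), and -0.12 without HCB 1. Of 16 thyroid hormone genes, 0 were higher and 3 lower, with a median of -0.15 (-0.149). Of 37 complement and coagulation genes, 0 were higher and 1 lower, 9 were higher without overlap, and the median was 0.07, or 0.21 without HCB 1, where 27 of the 37 lay above HCB 2 in both combination libraries (5470 of 16591 over all genes), and -0.02 (-0.019) without combination library 1. Of 13 cholangiocyte markers, 2 were higher and 0 lower, with a median of 0.55 and 0.50 without HCB 1.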
